A study of Drosophila melanogaster with 15 samples.

Results

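The nicotinic acetylcholine receptor (nAChR) subunit genes of Drosophila melanogaster were followed through 15 nuclear RNA-seq libraries of the mushroom body (MB). The family was taken by current gene symbol, matched to the FlyBase gene ID in the count tables: nAChRalpha1 to nAChRalpha7 and nAChRbeta1 to nAChRbeta3, 10 genes of 17559. All 10 were found in the tables, 9 had counts, and nAChRbeta3 had none in any of the 15 libraries. The study set flies with a knockdown of trithorax (trx), a histone methyltransferase gene of the trithorax group, against their genetic background controls, each trained or naïve.

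There were 4 libraries of trained trx-KD flies, 3 of naïve trx-KD flies, 4 of trained controls and 4 of naïve controls. In a w* background, trx-KD flies carried the hairpin insertion P{GD4502}v37715 over UAS-unc84::GFP, which marks nuclei, and the driver R14H06-Gal4 with UAS-Dicer2, which strengthens RNA interference. R14H06-Gal4 is active mainly in Kenyon cells, the intrinsic neurons of the MB. Controls lacked the hairpin and had w*, UAS-unc84::GFP, UAS-Dicer2 and R14H06-Gal4 like every other group. No element in the genotype limits the knockdown to adults, and it rests on 1 hairpin line. Each library came from a pool of 50 to 60 adult heads, from which GFP-tagged nuclei were pulled with antibody-coated beads. The labels give neither the kind nor the time of training, nor the sex of the flies. Nothing in them says whether replicates were separate crosses or separate training days, so the p values below measure the spread between these pools.

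nAChRs are ligand-gated cation channels made of 5 subunits around a pore. Alpha subunits carry a pair of neighbouring cysteines in the acetylcholine-binding loop, and beta subunits lack it. Acetylcholine is the main fast excitatory transmitter of the fly brain: projection neurons release it onto Kenyon cell dendrites, where odour-evoked currents run through nAChRs, and Kenyon cells release it themselves onto the MB output neurons. The subunits are also the targets of neonicotinoid and spinosyn insecticides.

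Levels are given as CPM, the counts of a gene per 1000000 counts on all genes of the library, scaled between libraries by the trimmed mean of M values (TMM). The libraries held 14154045 to 45976562 counts on genes, of which the family took 0.702% to 0.956%. trx itself was measured at 499 to 550 CPM in the 7 trx-KD libraries and at 561 to 609 CPM in the 8 control libraries. Its log2 fold change in trx-KD against control was -0.155 ± 0.048 (SE) in trained flies (adjusted p = 0.0744) and -0.108 ± 0.060 in naïve flies (adjusted p = 0.304). Each of the 12 Kenyon cell markers in the list used here was detected in every library. Photoreceptor markers, which belong to cells outside the MB, summed to between 8140 and 16400 CPM.

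Differences were tested by the quasi-likelihood method of edgeR over all genes that passed a filter on low counts. A call means a p value under 0.1 after Benjamini-Hochberg adjustment over those genes. Fold changes are on the log2 scale, trx-KD over control or trained over naïve, with their standard error (SE).

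The subunits covered a wide range of levels in MB nuclei. To compare genes, CPM was divided by the length of all annotated exons in kilobases. nAChRbeta1, the only beta subunit at a high level, led at 491 CPM per kilobase (369 to 592 over the 15 libraries). nAChRalpha6, the target of spinosyns, came next at 371 (296 to 463), and nAChRalpha5 followed at 162 (123 to 203). These 3 genes held the first 3 places in every library. nAChRalpha5, nAChRalpha6 and nAChRalpha7 are the fly subunits closest in sequence to the vertebrate alpha7 subunit.

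The middle of the order was occupied by nAChRalpha4 at 110 CPM per kilobase (93.2 to 128), nAChRalpha7 at 103 (81.2 to 129) and nAChRalpha1 at 80.4 (64.2 to 97.6). nAChRalpha4 and nAChRalpha7 exchanged places between libraries, while nAChRalpha1 was sixth in each. nAChRalpha3 at 30.6 (27.3 to 33.3) and nAChRalpha2 at 28.2 (22.9 to 33.9) also exchanged places. nAChRbeta2 was lowest of the measured subunits at 15.7 (11.5 to 19.1). The ranges of neighbours over the libraries were separate at 3 steps, between nAChRalpha6 and nAChRalpha5, between nAChRalpha1 and nAChRalpha3, and between nAChRalpha2 and nAChRbeta2. At the other steps among the 9 measured genes the ranges overlapped. The order was the same with the longest transcript as length and with scaling by library size alone.

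**Figure D1:**
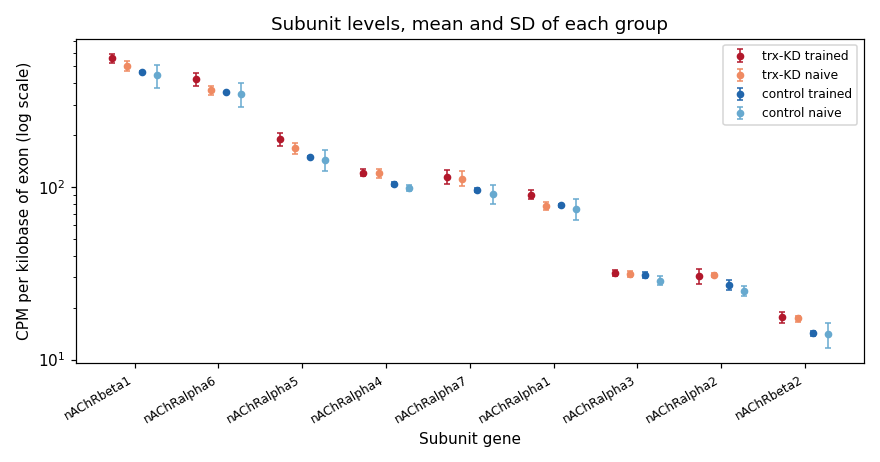
Mean CPM per kilobase of exon (log axis) of the 9 measured subunit genes in the 4 groups, with bars of 1 SD (4 libraries a group, 3 for naïve trx-KD). The genes run from nAChRbeta1 at 443 to 557 CPM per kilobase down to nAChRbeta2 at 14 to 17.6, and the order of group means puts nAChRbeta1, nAChRalpha6 and nAChRalpha5 first in all 4 groups.

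In naïve controls the level per kilobase of nAChRbeta1 stood at the 99.7th percentile of 9554 genes and that of nAChRalpha6 at the 99.4th percentile. nAChRalpha5, nAChRalpha4, nAChRalpha7 and nAChRalpha1 lay at percentiles 97.1, 94.9, 94.4 and 92.9. nAChRalpha3, nAChRalpha2 and nAChRbeta2 lay lower, at percentiles 79.4, 76.9 and 64.1. As a share of the family's summed level per kilobase, nAChRbeta1 made up 33.8% to 36.0% in all libraries and nAChRalpha6 25.1% to 28.3%. The summed alpha level per kilobase was 1.68 to 1.86 times the summed beta level.

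nAChRbeta3, a divergent beta subunit, had a count of 0 in each of the 15 libraries. At these depths a count of 0 allows a level of up to 0.0653 to 0.212 CPM, taking 3 counts in a library as the limit. In the BDGP6.54 annotation the gene lies on chromosome 2L, plus strand, positions 545129 to 547096, and all of its 1532 exon bases also lie in exons of Ets21C, a transcription factor gene on the other strand. Ets21C itself had 49 to 380 counts. Among the genes of the tables that the annotation holds, 567 of 586 genes whose exon bases all lie in exons of other genes had 0 counts in every library, 96.8%, against 19.6% of the other 16667 genes. A further 6 genes of the partner and marker lists were also at 0 in all 15 libraries, and share no exon base with another gene: mAChR-C, alrm, moody, Tret1-1, Tdc2 and Arr2. Arr2 encodes an arrestin of photoreceptors, and ninaE, the opsin gene of the same cells, had 4740 to 11100 CPM. Whether the counting used strand is not stated in the sources used here, so that the 0 cannot be read as absence of the transcript, and nAChRbeta3 was in none of the tests.

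The other 9 genes are spread over 4 chromosome arms. nAChRalpha1 (3R, 24393896 to 24457157, minus strand), nAChRalpha2 (3R, 24485428 to 24491147, plus strand) and nAChRbeta2 (3R, 24509228 to 24515106, minus strand) form a cluster of 121.2 kb. Gaps of 28.3 kb and 18.1 kb separate them, with 1 other protein-coding gene in the first gap and 0 in the second. nAChRalpha5 (14040170 to 14094401, plus strand) and nAChRalpha6 (9793317 to 9886250, minus strand) lie on 2L. nAChRalpha4 (23206669 to 23287448, plus strand) and nAChRbeta1 (4429349 to 4435993, plus strand) lie on 3L, and nAChRalpha3 (8276200 to 8367169, minus strand) and nAChRalpha7 (19327075 to 19348447, minus strand) on X. nAChRalpha3 shares 251 exon bases (2.39% of its exon length) with CG1636 on the other strand, and nAChRalpha4 shares 247 (4.08%) with a non-coding RNA gene. The remaining 7 measured genes share no exon base with another gene.

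In trained flies, 7 of the 9 measured subunits were higher in trx-KD than in control MB nuclei and none was lower. In this comparison 1284 of 9237 genes tested were called, 13.9%, 658 of them higher and 626 lower (378 and 1031 with scaling by library size alone, 104 and 1924 with the scaling to Kenyon cell markers). The called subunits were nAChRalpha1, nAChRalpha4, nAChRalpha5, nAChRalpha6, nAChRalpha7, nAChRbeta1 and nAChRbeta2, and their folds lay between 1.15 and 1.26. The median log2 fold change of the 9 subunits was 0.248, against -0.028 over all genes tested. Every trained trx-KD library lay above every trained control library for each of these 7 genes. Groups were separate in this way, in either direction, for 17.8% of all genes tested.

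nAChRalpha5 had the largest estimate. Its level was 1600, 1690, 1910 and 1880 CPM in trained trx-KD libraries, against 1400, 1400, 1410 and 1400 CPM in trained controls. The log2 fold change was 0.335 ± 0.058 (SE; adjusted p = 0.0121). The controls were nearly identical to each other, and the trx-KD libraries were all above them.

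nAChRbeta1, the beta subunit at the high level, had 1560, 1570, 1760 and 1740 CPM in trained trx-KD libraries, against 1370, 1390, 1390 and 1350 CPM in trained controls. Its log2 fold change was 0.268 ± 0.051 (adjusted p = 0.0161). nAChRbeta2, the low-level beta subunit, had 65.5, 67.7, 76.8 and 73.7 CPM in trained trx-KD libraries, against 56.9, 59.5, 54.6 and 57.8 CPM in trained controls. Both beta subunits were thus separate between the groups, with a log2 fold change of 0.309 ± 0.069 for nAChRbeta2 (adjusted p = 0.0255).

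nAChRalpha6 had 3010, 3120, 3600 and 3370 CPM in trained trx-KD libraries, against 2770, 2750, 2750 and 2750 CPM in trained controls, a log2 fold change of 0.248 ± 0.056 (adjusted p = 0.0269). nAChRalpha7 had 621, 604, 745 and 691 CPM in trained trx-KD libraries, against 547, 562, 565 and 535 CPM in trained controls (0.269 ± 0.067, adjusted p = 0.0362). Replicates 3 and 4 of trained trx-KD were the higher ones for both genes, and for nAChRalpha5 and both beta subunits.

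nAChRalpha4, known from the sleep mutant redeye, had 710, 701, 774 and 737 CPM in trained trx-KD libraries, against 637, 643, 612 and 627 CPM in trained controls (log2 fold change 0.214 ± 0.047, adjusted p = 0.0244). nAChRalpha1, an alpha subunit whose mutants resist neonicotinoids, had 950, 952, 1080 and 1000 CPM in trained trx-KD libraries, against 864, 882, 848 and 861 CPM in trained controls (0.203 ± 0.050, adjusted p = 0.0348). It had the smallest fold change of the 7 called subunits.

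The remaining 2 subunits were not called. nAChRalpha2 had 71.3, 81.0, 64.2 and 74.8 CPM in trained trx-KD libraries, against 71.4, 61.5, 62.4 and 64.6 CPM in trained controls, with a log2 fold change of 0.163 and a 95% interval of -0.016 to 0.343 (adjusted p = 0.234). nAChRalpha3 had 338, 317, 350 and 327 CPM in trained trx-KD libraries, against 322, 335, 334 and 306 CPM in trained controls (0.038, interval -0.077 to 0.153, adjusted p = 0.693). For both genes the groups overlapped.

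**Figure D2:**
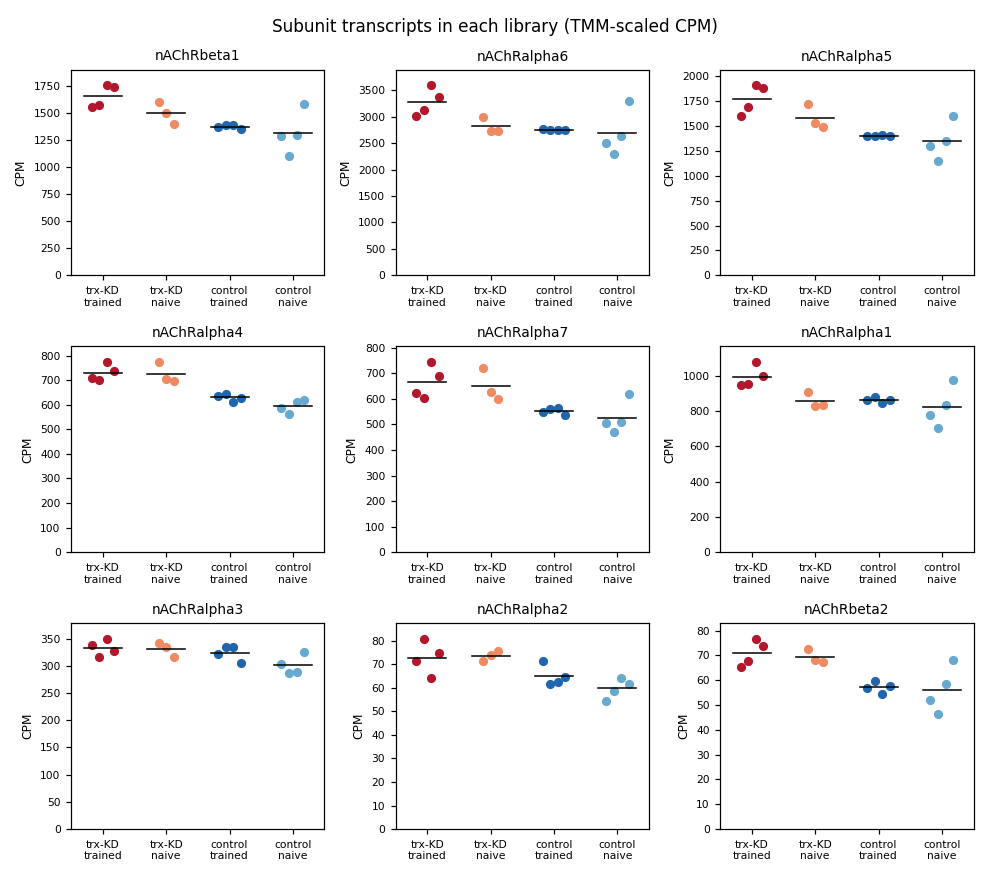
TMM-scaled CPM (linear axes from 0) of the 9 measured subunits in each library, 1 panel a gene in order of level per kilobase, 1 point a library and a black line at the group mean. Trained trx-KD libraries lie above all trained controls for 7 genes, and overlap them for nAChRalpha3 and nAChRalpha2; naïve control replicate 4, the rightmost point, is the highest naïve control for 8 of the 9.

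These calls depended on which genes were taken as the base of the scaling. Of 12 Kenyon cell markers, 7 were called higher in trained trx-KD than in trained controls and 0 lower, among them mub, Dop1R2 and Pka-C1, with a median log2 fold change of 0.190 over the list. The estimates of 3 markers were below 0 and not called: -0.058 for ey and -0.053 for dac, both transcription factor genes, and -0.193 for prt, a vesicular transporter gene (adjusted p = 0.680, 0.714 and 0.403). Their summed level was 15500 to 17600 CPM in trained trx-KD libraries, against 13300 to 15000 CPM in trained controls, and none of the 12 was at 0 in any library. Scaling to these 12 markers, an alternative chosen after seeing the data, moved the median log2 fold change of all genes by -0.150. It left 0 of the 9 subunits called. Their median estimate was then 0.097, and the lowest adjusted p was 0.141, that of nAChRalpha5 (log2 fold change 0.183). nAChRalpha3 then had an estimate of -0.113, and the other 8 remained above 0. In pools of nuclei, more nuclei of a type and more RNA per nucleus cannot be told apart. The part of cell type makeup in the subunits' difference was not tested.

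Of the other lists, 2 of 3 muscle markers and 1 of 5 glial markers were called lower in trained trx-KD, and so was 1 of 7 photoreceptor markers. In this comparison 13.9% of all genes tested were called in either direction. 2 of 6 fat body and 1 of 4 hemocyte markers were called higher, and 0 of 7 markers of other neurons were called. The fat body calls were Lsp2, a larval serum protein gene, and Yp1, a yolk protein gene. Lsp2 had 365, 171, 451 and 303 CPM in trained trx-KD libraries, against 143, 124, 184 and 121 CPM in trained controls. Yp1 rested on 1 library: it had 142 CPM in trained trx-KD replicate 4 and 0.12 to 0.532 CPM in the other 3 trained trx-KD libraries, against 0.118 to 0.896 CPM in trained controls. Muscle markers summed to 1360 to 2250 CPM in trained trx-KD libraries, against 1590 to 3130 CPM in trained controls. Photoreceptor markers summed to 8190 to 10700 CPM in trained trx-KD libraries, against 9060 to 11400 CPM in trained controls. Whether these had a part in the subunits' values was not tested. 5 of the 7 subunit calls held when any 1 library was left out. Over all genes 495 to 1808 were called in those fits, 5.31% to 19.4% of the genes tested. nAChRalpha1 had an adjusted p of 0.103 without trained control replicate 3, 0.108 without trained control replicate 4 and 0.101 without trained trx-KD replicate 4. nAChRalpha7 had an adjusted p of 0.112 without trained control replicate 4 and 0.110 without trained trx-KD replicate 4.

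**Figure D3:**
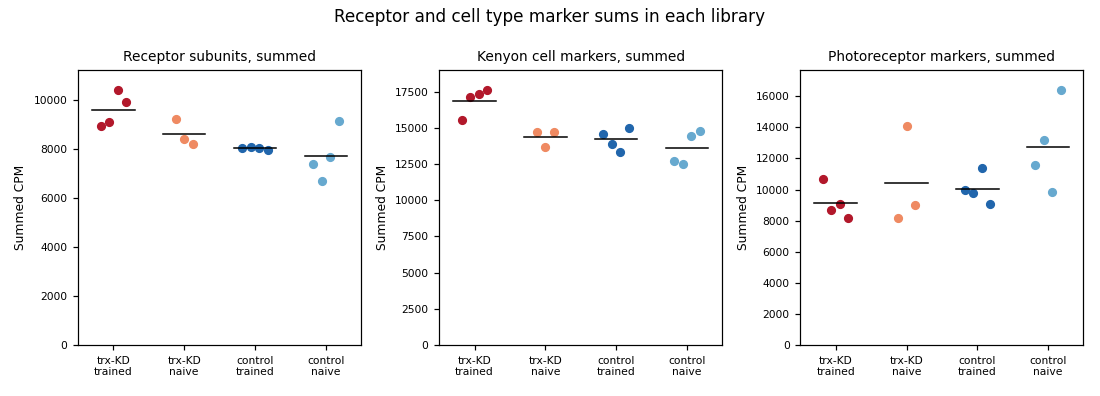
Summed CPM (linear axes from 0) of the nAChR subunits, of the 12 Kenyon cell markers and of the photoreceptor markers in each library, 1 point a library with a line at the group mean. Trained trx-KD libraries lie above all trained controls in the first panel (8920 to 10400 against 7950 to 8080 CPM) and in the second (15500 to 17600 against 13300 to 15000 CPM), and overlap them in the third.

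In naïve flies, 3 of the 9 measured subunits were higher in trx-KD than in control MB nuclei: nAChRalpha2, nAChRalpha4 and nAChRalpha7, with folds of 1.22 to 1.23. None was lower. Of 9419 genes tested 1333 were called, 14.2%, with 591 higher and 742 lower (735 and 618 with upper-quartile scaling, 66 and 590 with scaling to Kenyon cell markers). All 9 subunit estimates were above 0, with a median of 0.224, against -0.021 over all genes tested.

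nAChRalpha4 had 775, 706 and 696 CPM in naïve trx-KD libraries, against 587, 564, 610 and 618 CPM in naïve controls (log2 fold change 0.290 ± 0.067, adjusted p = 0.0252). nAChRalpha2 had 71.3, 74.0 and 75.6 CPM in naïve trx-KD libraries, against 54.6, 58.6, 64.3 and 61.7 CPM in naïve controls (0.301 ± 0.075, adjusted p = 0.0334). For these 2 genes every naïve trx-KD library lay above every naïve control, as was so, in either direction, for 23% of all genes tested.

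nAChRalpha7 had 721, 627 and 599 CPM in naïve trx-KD libraries, against 507, 469, 511 and 619 CPM in naïve controls (0.304 ± 0.10, adjusted p = 0.0890). nAChRbeta2 had a log2 fold change of about the same size, 0.306, with a 95% interval of 0.053 to 0.558, and was not called (adjusted p = 0.129). Its level was 72.7, 68.2 and 67.5 CPM in naïve trx-KD libraries, against 52.0, 46.3, 58.3 and 68.0 CPM in naïve controls. Both genes overlapped between the groups through naïve control replicate 4 alone.

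Naïve control replicate 4 was the highest naïve control for 8 of the 9 subunits, all but nAChRalpha2, and replicate 2 was the lowest for 8. Replicate 4 also had the highest photoreceptor and fat body marker sums, at 16400 and 1300 CPM. The other 3 naïve controls had 9850 to 13200 and 470 to 595 CPM. The Kenyon cell marker sum was also highest in replicate 4, at 14800 CPM against 12500 to 14400 CPM, and was lowest in replicate 2. The muscle marker sum of replicate 4 was lowest (1600 against 2530 to 3350 CPM), and its glial sum lay among theirs. Its r of log2 CPM with them was 0.981 to 0.986, against 0.988 to 0.989 among themselves. The part of this in the subunits' values was not tested. For nAChRalpha5 the naïve trx-KD libraries had 1720, 1530 and 1490 CPM, against 1300, 1150, 1350 and 1600 CPM in naïve controls (0.224, 95% interval -0.007 to 0.455, adjusted p = 0.221). For nAChRbeta1 they had 1600, 1500 and 1400 CPM, against 1290, 1100, 1300 and 1580 CPM (0.191, interval -0.050 to 0.431, adjusted p = 0.317). In both genes the replicate 4 control lay among the trx-KD libraries and the other 3 below them.

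The 3 subunits left were nearer to their controls. nAChRalpha6 had 3000, 2730 and 2730 CPM in naïve trx-KD libraries, against 2510, 2300, 2640 and 3300 CPM in naïve controls (0.074, interval -0.173 to 0.321). nAChRalpha1 had 911, 830 and 833 CPM in naïve trx-KD libraries, against 778, 707, 833 and 979 CPM in naïve controls (0.060, interval -0.164 to 0.284). For nAChRalpha3 the values were 342, 335 and 317 CPM in naïve trx-KD libraries, against 304, 287, 289 and 325 CPM in naïve controls (0.141, interval -0.007 to 0.288). None of these was called, with adjusted p values of 0.736 for nAChRalpha6, 0.767 for nAChRalpha1 and 0.228 for nAChRalpha3.

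The count in naïve flies turned on single libraries. Without naïve control replicate 4, 8 of the 9 subunits were called higher, all but nAChRalpha1, and over all genes 2558 of 9326 were called, 27.4%. Without naïve trx-KD replicate 1, 2 or 3 the calls over all genes were 500, 330 and 635, or 5.20%, 3.43% and 6.61% of the genes tested. Without naïve trx-KD replicate 1 nAChRalpha2 was the only subunit called, and nAChRalpha4 had an adjusted p of 0.126. Without naïve trx-KD replicate 2 or 3 nAChRalpha4 was the only subunit called, and nAChRalpha2 had an adjusted p of 0.134 or 0.118. nAChRalpha7 lost its call without any 1 of these 3 libraries (adjusted p = 0.310, 0.206 and 0.116) and without naïve control replicate 1, 2 or 3 (adjusted p = 0.209, 0.182 and 0.178).

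In naïve flies 14.2% of all genes tested were called in either direction. Among the Kenyon cell markers only Dop1R2, 1 of 12, was called higher in naïve trx-KD, and 0 were called lower. The median estimate of the list was 0.071, and its sums were 13700 to 14700 CPM in naïve trx-KD libraries, against 12500 to 14800 CPM in naïve controls. Scaling to these markers moved the median of all genes by -0.078 and left 0 of the 9 subunits called, the lowest adjusted p being 0.204 for nAChRalpha4, with 8 estimates above 0 and nAChRalpha1 at -0.012. 2 of 5 glial, 2 of 5 hemocyte and 2 of 3 muscle markers were called lower in naïve trx-KD, as was 1 of 6 fat body markers, while of 7 markers of other neurons 2, Gad1 and Trhn, were higher and 1, ple, was lower, and 0 of 7 photoreceptor markers were called. The part of these in the subunits' difference was not tested.

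**Figure D4:**
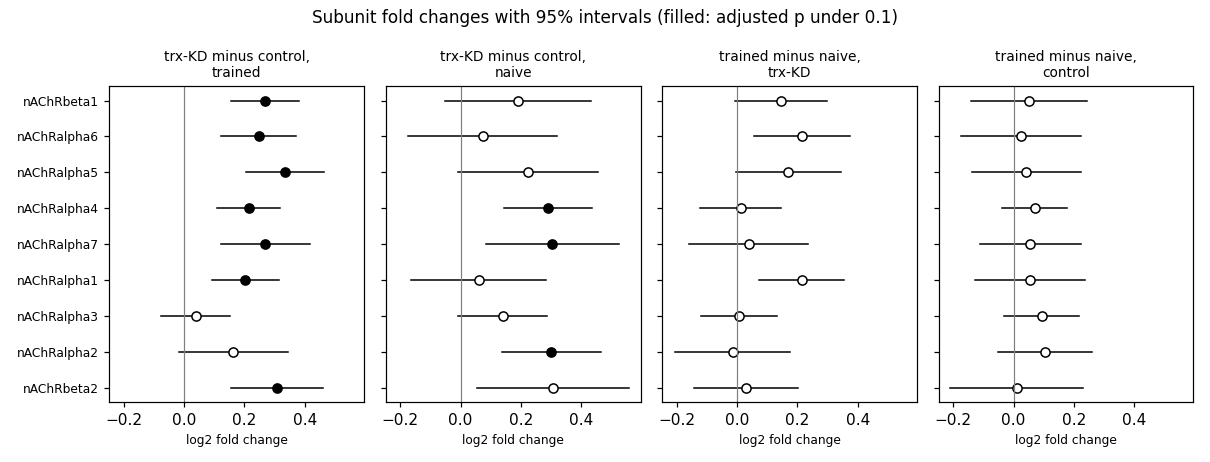
Log2 fold changes (points) with 95% intervals (lines) of the 9 measured subunits in the 4 comparisons; filled points have an adjusted p under 0.1. There are 7 filled points for trx-KD against control in trained flies, 3 in naïve flies, and 0 for trained against naïve in either genotype.

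**Figure D5:**
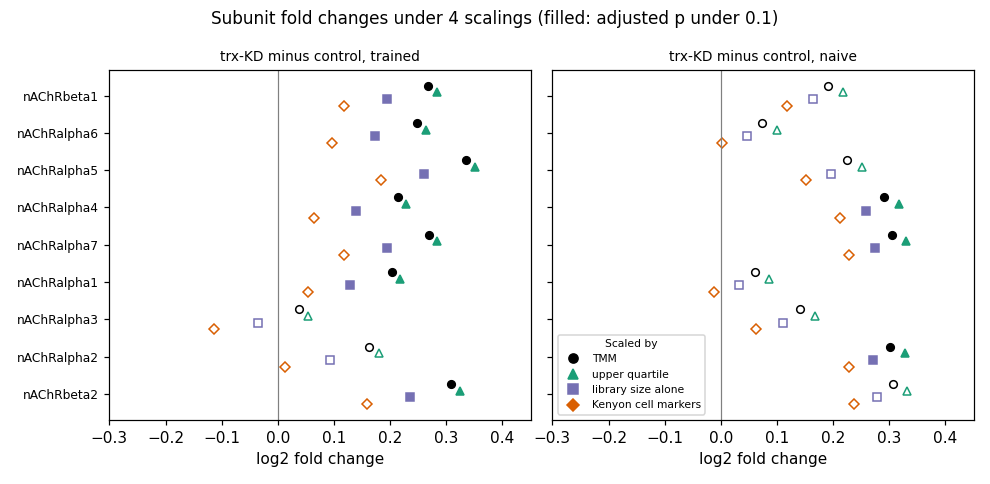
Log2 fold changes of the 9 measured subunits in trx-KD against control, in trained flies (left) and naïve flies (right), under 4 scalings of the counts; filled symbols have an adjusted p under 0.1. Scaling by TMM, upper quartile or library size alone leaves 7 filled in trained and 3 in naïve flies, and scaling to the 12 Kenyon cell markers leaves 0 in both.

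Training changed no subunit past the threshold in either genotype. In controls, 0 of 9 were called, 0 had an unadjusted p under 0.05 and DESeq2 also called 0; over all genes 405 of 9255 were called, 4.38%, of which 95 were higher and 310 lower in trained flies (22 and 278 with scaling to Kenyon cell markers). All 9 estimates lay between 0.010 for nAChRbeta2 and 0.104 for nAChRalpha2, with a median of 0.055, against 0.003 over all genes. The 95% intervals ran at their widest from -0.209 to 0.230 for nAChRbeta2. For all 9 genes the trained controls overlapped the naïve controls. Groups were separate for 9.91% of all genes tested.

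Trained controls were closer to each other than naïve controls were. The coefficient of variation of the 9 subunits was 0.400% to 6.86% over trained controls, with a median of 2.14%, and 4.10% to 16.6% over naïve controls, with a median of 13.8%. For nAChRalpha6 the level was 2760 ± 11 CPM (SD, n = 4) in trained controls and 2690 ± 430 CPM (n = 4) in naïve controls. The median coefficient of variation was 7.39% in trained and 5.54% in naïve trx-KD libraries. The difference in spread between groups was not tested.

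In trx-KD flies, training gave 0 calls among the 9 subunits, and DESeq2 gave 0 as well, while 50 of 9370 genes were called, 0.534%, 32 higher and 18 lower (16 and 21 with scaling by library size alone, 20 and 316 with scaling to Kenyon cell markers). 2 subunits had an unadjusted p under 0.05. nAChRalpha1 had 950, 952, 1080 and 1000 CPM in trained trx-KD libraries, against 911, 830 and 833 CPM in naïve trx-KD libraries (log2 fold change 0.214 ± 0.063, unadjusted p = 0.00678, adjusted p = 0.275). nAChRalpha6 had 3010, 3120, 3600 and 3370 CPM in trained, against 3000, 2730 and 2730 CPM in naïve trx-KD libraries (0.216 ± 0.072, unadjusted p = 0.0132, adjusted p = 0.331). In these 2 genes every trained library lay above every naïve library, as was so, in either direction, for 12% of all genes tested.

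nAChRalpha5 and nAChRbeta1 had estimates of 0.169 (95% interval -0.005 to 0.343, adjusted p = 0.428) and 0.146 (-0.006 to 0.298, adjusted p = 0.432) in trained against naïve trx-KD flies. The other 5 lay between -0.015, that of nAChRalpha2, and 0.038, that of nAChRalpha7, with adjusted p values of 0.893 to 0.967. The median of the 9 was 0.038, against -0.005 over all genes. In the same comparison the estimates of 12 of 12 Kenyon cell markers were above 0, their median being 0.177 on the log2 scale, and 0 were called. Scaling to these markers moved the median of all genes by -0.174 and left 2 of the 9 subunit estimates above 0, those of nAChRalpha1 and nAChRalpha6, both at 0.040.

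Whether training acted differently in the genotypes was tested as an interaction over all 15 libraries. 0 of the 9 subunits were called, 0 had an unadjusted p under 0.05, and DESeq2 called 0. Over all genes 0 of 9749 were called (0%), 1055 had an unadjusted p under 0.05, and DESeq2 called 23. The estimates, trx-KD minus control in the log2 response to training, ran from -0.134 for nAChRalpha2 (95% interval -0.368 to 0.10) to 0.177 for nAChRalpha6 (-0.090 to 0.445). The 3 calls in naïve and the 7 calls in trained flies are therefore not shown to differ between trained and naïve flies. Each group enters 2 of the 4 comparisons, so that these are not independent of each other.

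Summed over the family, the level was 9580 ± 691 CPM (SD, n = 4) in trained trx-KD, 8600 ± 535 CPM (n = 3) in naïve trx-KD, 8020 ± 54.5 CPM (n = 4) in trained control and 7720 ± 1040 CPM (n = 4) in naïve control libraries. The ratio of summed alpha to summed beta levels per kilobase was 1.73 ± 0.0299 in trained trx-KD and 1.73 ± 0.0458 in naïve trx-KD libraries, against 1.76 ± 0.0206 in trained and 1.77 ± 0.0640 in naïve controls. The ranges of this ratio overlapped between all 4 groups.

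The share of each subunit in the family's summed CPM per kb overlapped between trained and naïve controls for all 9 genes. It did not overlap between trx-KD and control libraries for 2 of 9 genes in trained and 5 of 9 in naïve flies, nor between trained and naïve trx-KD libraries for 4 of 9. No test was run on the shares, and they have no rate over all genes to stand beside these counts. As parts of 1 sum the shares also depend on each other, so that a rise in some entails a fall in others. nAChRbeta1 took a mean share of 35.4% in trained and in naïve trx-KD libraries, against 35.1% in trained and 35.0% in naïve controls. nAChRalpha5 took 12% in trained and 11.8% in naïve trx-KD libraries, against 11.4% in both control groups. nAChRalpha6 took 26.7% in trained and 25.5% in naïve trx-KD libraries, against 26.9% in trained and 27.3% in naïve controls. In naïve flies the shares of nAChRalpha6 were 25.1% to 25.9% in trx-KD, against 26.5% to 28.3% in control libraries. Those of nAChRalpha1 were also lower, at 5.38% to 5.58% in naïve trx-KD, against 5.81% to 6.03% in naïve control libraries. nAChRalpha7 took 7.65% to 8.19% in naïve trx-KD, against 7.06% to 7.45% in naïve controls. Higher in the same way were nAChRalpha5 (11.6% to 12% against 11.3% to 11.5%) and nAChRbeta2 (1.19% to 1.24% against 1.06% to 1.16%). In trained flies the 2 genes were nAChRalpha3, lower at 1.91% to 2.19% in trx-KD against 2.24% to 2.41% in controls, and nAChRalpha5, higher at 11.6% to 12.3% against 11.3% to 11.5%. Between trained and naïve trx-KD libraries the ranges of nAChRalpha4, nAChRalpha7 and nAChRbeta2 were lower in trained flies and those of nAChRalpha6 higher.

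Libraries of 1 group tended to be high or low for most subunits at the same time. Over the 15 libraries, with the mean of each group taken out, Pearson's r of log2 CPM was 0.56 to 0.98 for the 28 pairs of subunits without nAChRalpha2, with a median of 0.88. The highest values, 0.98, were those of nAChRalpha1 with nAChRalpha6 and of nAChRalpha1 with nAChRbeta2. nAChRalpha2 stood apart: its 8 pairs had r between -0.49, with nAChRalpha3, and 0.05, with nAChRbeta2. Thus its neighbours in the gene cluster on 3R, nAChRalpha1 and nAChRbeta2, varied with each other and not with nAChRalpha2 (r = -0.04 with nAChRalpha1). The points share the libraries, their depth and their scaling. Counts of nAChRalpha2 are among the lowest of the family, and so are those of nAChRbeta2. Leaving nAChRalpha2 aside, nAChRbeta2 had r of 0.56 to 0.98 with the other subunits. The part of low counts was not tested.

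Single libraries show this. In trained trx-KD replicate 3, 8 of the 9 subunits had the highest value of their group and nAChRalpha2, at 64.2 CPM, its lowest. In naïve trx-KD replicate 1, 8 of 9 were highest and nAChRalpha2, at 71.3 CPM, was lowest.

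For each of the 8 subunits called in any comparison, the 3 genes outside the family with the most similar log2 CPM over the 15 libraries were taken from 6011 candidates. Pearson's r ranged from 0.955 to 0.991 over these 24 entries. Unlike for the pairs above, group means were left in, so that differences between groups enter r. The entries are the highest of 6011 candidates and have no background value beside them. Rdl, a GABA receptor subunit of the same Cys-loop superfamily, was among the 3 for nAChRalpha6 (r = 0.991), nAChRalpha5 (0.979), nAChRbeta1 (0.974) and nAChRalpha1 (0.967). mtd was among them for nAChRalpha5 (0.985) and nAChRbeta2 (0.962). The others were mmd for nAChRalpha5 (0.986), Galphao and Dg for nAChRalpha6 (0.974 and 0.971), cac, a presynaptic calcium channel, and tutl for nAChRbeta1 (0.977 and 0.975), cpx and dysc for nAChRalpha1 (0.970 and 0.968), and CG42700 and RunxA for nAChRbeta2 (0.976 and 0.967).

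nAChRalpha7 was most like a gene listed by its ID only and Cadps (r = 0.968 each), and unc-13 (0.960), the last 2 being genes of synaptic vesicle release. nAChRalpha4 was most like CG11360 (0.973), Syt7 (0.968) and DIP-gamma (0.967). nAChRalpha2 was most like Rgk2 (0.963), GlyT (0.961) and Syt14 (0.955). Apart from Rdl and mtd, no gene was named for more than 1 subunit.

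The other genes of cholinergic signalling were read from the same fits. For trx-KD against control, scaling to Kenyon cell markers moved the median of all genes by -0.150 in trained and -0.078 in naïve flies. For training it moved that median by -0.174 in trx-KD flies and -0.085 in controls. Calls of the genes below under that scaling, or with 1 library left out, are not given here. Of the transmitter supply genes, ChAT, ChT and Ace were measured. Over all genes, training gave calls for 4.38% in controls and 0.534% in trx-KD flies. With 1 library left out, training in trx-KD flies gave 4 to 160 calls over all genes, against 50 with all libraries. ChT, the choline transporter that feeds acetylcholine synthesis, was called higher after training in both genotypes. In trx-KD flies ChT was the last by p of the 50 genes called. It averaged 414 ± 18.5 CPM in trained (SD, n = 4) and 344 ± 3.00 CPM in naïve trx-KD libraries (n = 3; log2 fold change 0.269 ± 0.053, adjusted p = 0.0984), and 380 ± 8.64 CPM in trained and 304 ± 17.0 CPM in naïve controls (n = 4 each; 0.308 ± 0.053, adjusted p = 0.00785). ChAT, which makes acetylcholine, had estimates of 0.189 in trx-KD (adjusted p = 0.299) and 0.131 in controls (adjusted p = 0.436). Ace, which breaks it down, was higher in trained trx-KD than in trained controls, at 884 ± 43.0 against 752 ± 31.1 CPM (0.233 ± 0.051, adjusted p = 0.0241), and had 0.196 in naïve flies (adjusted p = 0.207).

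Of the muscarinic receptors, the G protein-coupled receptors for acetylcholine, mAChR-A and mAChR-B were measured and 0 of 2 were called in any comparison. Their estimates for trx-KD against control were 0.148 and 0.178 in trained flies (adjusted p = 0.144 and 0.110) and 0.147 and 0.163 in naïve flies (adjusted p = 0.313 and 0.196). mAChR-C was listed at 0 in all 15 libraries and was not tested.

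Of 6 genes for receptor assembly and synaptic partners, 2 were higher in naïve trx-KD than in naïve controls, where 14.2% of all genes were called in either direction, and 1 in trained trx-KD than in trained controls, where 13.9% were. hig and Hasp, which encode secreted proteins of the cholinergic synaptic cleft, were the 2 in naïve flies. hig had 497 ± 42.3 CPM in naïve trx-KD (SD, n = 3) and 347 ± 24.7 CPM in naïve controls (n = 4; log2 fold change 0.522 ± 0.077, adjusted p = 0.00488). Hasp had 991 ± 92.7 CPM in naïve trx-KD and 749 ± 23.5 CPM in naïve controls (0.407 ± 0.072, adjusted p = 0.00988). In trained flies hig had 0.148 (adjusted p = 0.158) and Hasp 0.054 (adjusted p = 0.738), and their interaction with training was not called (-0.370 for hig and -0.349 for Hasp, adjusted p = 0.363 each).

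qvr, which encodes the membrane-anchored protein Sleepless, was the 1 in trained flies, at 1150 ± 89.5 CPM in trained trx-KD and 1010 ± 31.7 CPM in trained controls (0.196 ± 0.059, adjusted p = 0.0658). RIC-3 and Unc50, whose Caenorhabditis elegans counterparts act in nAChR assembly and trafficking, and Tmx3, a thioredoxin-related membrane protein, were not called in any comparison. In trained trx-KD against control their estimates were 0.045 for RIC-3, 0.116 for Unc50 and 0.215 for Tmx3 (adjusted p = 0.817, 0.728 and 0.153).

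Of 11 other Cys-loop channel subunits, which form chloride channels for the most part, 10 were tested, and 0 were called for training in either genotype. In trained flies, where 13.9% of all genes were called in either direction, 3 of 10 were higher in trx-KD: Rdl (log2 fold change 0.378 ± 0.070, adjusted p = 0.0146), GluClalpha (0.322 ± 0.078, adjusted p = 0.0327) and pHCl-1 (0.218 ± 0.063, adjusted p = 0.0588). In naïve flies, beside 14.2% of all genes, 2 of 10 were higher: pHCl-1 (0.275 ± 0.065, adjusted p = 0.0266) and Lcch3 (0.243 ± 0.082, adjusted p = 0.0954). 0 were lower in either comparison. As for the partner genes, calls of these channel subunits under the scaling to Kenyon cell markers are not given here. The median log2 fold change of the 10 was 0.146 in trained and 0.156 in naïve flies, beside 0.248 and 0.224 for the 9 nicotinic subunits.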

How the data were processed

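Nuclear RNA-seq of GFP-tagged MB nuclei was analysed in 15 libraries. The authors deposited 1 table of whole-number read counts per gene for each library, with no normalization. Per the submitters' processing notes STAR 2.5.3a, HTSeq 0.7.1 and the dm6 build were used; the strand setting and annotation release are not given in the sources used here. Each table lists 17560 features. The 1 row that names no FlyBase gene, the nuclear tag, took 0.437% to 0.681% of counts and was left out. Coordinates and exon lengths are those of BDGP6.54 (release 115), matched by gene ID, which 17253 of 17559 IDs had. VAChT and wupA had no match by current ID and are not analysed here.

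R 4.3.3, edgeR 4.0.16 (quasi-likelihood test after filterByExpr, minimum count 10 and minimum total 15, and TMM), DESeq2 1.42.0 and matplotlib were used. Each comparison was fitted on the libraries of its groups, the interaction on all 15, and p values were adjusted over the genes tested by the Benjamini-Hochberg method against a threshold of 0.1. The fits were tested on simulated data. Levels are TMM-scaled CPM, and log2 CPM used a prior count of 2. Likeness was sought among genes whose mean log2 CPM reached 3. Libraries held a median of 24250938 counts; intervals and limits of single counts cover counting error only. Replicates were compared in 21 pairs (r of log2 CPM 0.976 to 0.993, chi-square per degree of freedom at least 7.40). Within a group, libraries thus differed by more than counting error, so none was the same library sequenced again. Separate preparations from 1 pool could differ in this way too, so separate pools are not shown by it. Libraries of different groups were not compared in this way. All 10 subunits and all measured cholinergic partners were named; other Cys-loop subunits were named if called. The subunits, partner and marker lists were chosen with earlier results of these data known. Alternatives were DESeq2, other scalings and filters, a threshold of 0.05, the replicate number as a block, all 15 libraries in 1 fit, leaving out each library and, added after seeing the data, scaling to the geometric mean of 12 Kenyon cell markers.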

Additional observations from a re-analysis of the deposited data

Results flagged for a closer look

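nAChRalpha5 in trained control replicate 3 lay apart from the other trained controls, at 1411.3 CPM against 1399.4 to 1400.2 CPM, a gap of 0.935 of the group's range, past Dixon's 95% critical value for 4 samples. It was the 1 such case among 27 sets of 4 libraries (9 subunits in 3 groups); chance gives about 1 in 20. Trained trx-KD libraries had 1600 to 1910 CPM of the same gene.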

How the results depend on the processing

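The 7 subunit calls for trx-KD against control in trained flies stood at 7 with DESeq2, with upper-quartile scaling, library size alone, mitochondrial genes left out and each filter, at a threshold of 0.05 and with the replicate block, at 6 in the fit of all 15 libraries, and at 5 to 7 when 1 library was left out. The 3 calls in naïve flies became 2 at a threshold of 0.05, 4 with DESeq2, without a filter or in the fit of all 15 libraries, and 1 to 8 when 1 library was left out. Scaling to Kenyon cell markers, chosen after seeing the data, left 0 in both. Training and the interaction gave 0 calls among the subunits under all alternatives run. The replicate number as a block gave 9 calls in naïve flies, and over all genes 2712 calls against 1333 without it. Naïve trx-KD flies had no replicate 4, so this block takes naïve control replicate 4 out of the comparison. Leaving that library out gave 8 calls. Same-numbered libraries did not deviate together (r from -0.12 to 0.14, and in no comparison did every library correlate best with its own number). With 3 or 4 libraries a group, this cannot tell whether the numbers pair the libraries. With the block the other counts of subunits called stayed as they were.

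The estimates below changed sign, and none was called, their adjusted p values being 0.221 or more. With scaling to Kenyon cell markers, log2 fold changes were, for trained against naïve controls, -0.026 (nAChRalpha1), -0.015 (nAChRalpha4), -0.039 (nAChRalpha5), -0.056 (nAChRalpha6), -0.025 (nAChRalpha7), -0.029 (nAChRbeta1) and -0.066 (nAChRbeta2). For trained against naïve trx-KD they were -0.167 (nAChRalpha3), -0.163 (nAChRalpha4), -0.008 (nAChRalpha5), -0.137 (nAChRalpha7), -0.031 (nAChRbeta1) and -0.145 (nAChRbeta2). For trx-KD against control they were -0.113 (nAChRalpha3, trained) and -0.012 (nAChRalpha1, naïve), and for the interaction -0.002 (nAChRbeta1) and -0.079 (nAChRbeta2). With library size alone they were, for training in trx-KD, -0.050 (nAChRalpha3), -0.046 (nAChRalpha4), -0.021 (nAChRalpha7) and -0.028 (nAChRbeta2), for trx-KD against control in trained flies -0.035 (nAChRalpha3), and for the interaction -0.044 (nAChRbeta2). Without a filter they were -0.001 (nAChRalpha3, training in trx-KD) and -0.005 (nAChRbeta2, interaction), and with the replicate block -0.048 (nAChRbeta2, interaction).

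Leaving out 1 library gave, for training in controls, -0.014 to 0.146 (nAChRalpha1), -0.031 to 0.131 (nAChRalpha5), -0.044 to 0.137 (nAChRalpha6), -0.029 to 0.150 (nAChRbeta1) and -0.072 to 0.114 (nAChRbeta2). For training in trx-KD it gave -0.070 to 0.042 (nAChRalpha2), -0.027 to 0.031 (nAChRalpha3), -0.021 to 0.059 (nAChRalpha4), -0.021 to 0.117 (nAChRalpha7) and -0.009 to 0.063 (nAChRbeta2). For trx-KD against control in naïve flies it gave -0.008 to 0.159 (nAChRalpha1), and for the interaction -0.115 to 0.055 (nAChRalpha7), -0.015 to 0.159 (nAChRbeta1) and -0.096 to 0.087 (nAChRbeta2).

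Calls over all genes moved by more than 1.5 times as follows. For trained trx-KD against control, 1284 became 721 at a threshold of 0.05, 2028 with Kenyon cell marker scaling and 495 to 1808 when 1 library was left out. In naïve flies 1333 became 703, 656 and 330 to 2558 in the same settings. It became 2712 with the replicate block, which takes naïve control replicate 4 out of the comparison. For training in controls 405 became 246 with the block and 230 to 711 when 1 library was left out. In trx-KD 50 became 18 at 0.05, 231 with DESeq2, 91 without a filter, 8 with the block, 336 with Kenyon cell marker scaling, 125 in the fit of all 15 libraries and 4 to 160 when 1 library was left out. The interaction gave 23 with DESeq2 and 0 to 189 when 1 library was left out. The cause of these changes was not tested.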
